A study of Drosophila melanogaster with 10 samples.

Results

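The spindle checkpoint genes BubR1, Bub1, Bub3, Mad1, mad2, Zw10 and rod were followed in SL2 cells, a Drosophila melanogaster line made from embryos, after depletion of the histone acetyltransferase Tip60. They were found by gene symbol: every probe set (a group of short probes for one transcript) annotated to one of the 7 genes alone was taken. The 402 probe sets annotated to several genes were not used for any gene named here. Of the 7 genes, 6 had such a probe set, 1 each, and all 6 lay above the filter on dim probe sets, among the 11261 tested of 18952 on the array. BubR1 was linked to no single-gene probe set by the annotation and was not analysed here. Cells were given 10 µg of double-stranded RNA (dsRNA), kept at 26°C and harvested after 5 days. In the Tip60 RNAi group, 6 arrays came from 3 dsRNAs with 2 arrays each, called 1321-1618, 190-807 and 603-1116 after the stretch of Tip60 they match; 190-807 and 603-1116 overlap by 205 nucleotides. In the eGFP RNAi group, 4 arrays came from cells mock-treated with dsRNA against GFP, so both groups carry an RNAi response and differ in its target. The stated aim was to determine expression changes across the genome. Both groups are one cell line, and nothing in the labels ties replicate arrays to independent cultures, so p-values measure the spread between these arrays, which may be technical.

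The spindle checkpoint delays anaphase until every chromosome is attached to the spindle. Unattached kinetochores gather a Mad1 and Mad2 complex, which turns Mad2 into the form that binds Fizzy (the fly Cdc20), and BubR1, Bub3 and Mad2 together hold the ubiquitin ligase APC/C inactive. The kinase Bub1 and the adaptor Bub3 dock at the kinetochore, and Rod, Zw10 and Zwilch form the RZZ complex, which brings in Mad1, Mad2 and the dynein motor. Dynein later strips these proteins off attached kinetochores, and the released APC/C marks cyclins and securin for destruction.

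On the deposited scaling, transcripts of 3 checkpoint genes fell after Tip60 RNAi and those of the other 3 did not pass the test. mad2, Bub3 and rod fell to 64.6%, 72.6% and 71.5% of their mean eGFP RNAi signal. Mad1, Bub1 and Zw10, which bind Mad2, Bub3 and Rod, had 102.2%, 102.0% and 90.3% of theirs. Other partners did fall: Zwilch of the RZZ complex (log2 change −0.29) and fzy, the gene of the Fizzy protein that Mad2 binds (−0.72). Across all probe sets tested, 16.7% were called lower and 17.8% higher at an adjusted p under 0.05 (limma, Benjamini-Hochberg adjustment over all 11261), and the checkpoint genes had 3 of 6 lower and 0 higher. At an unadjusted p under 0.05 the counts were also 3 and 0; no other tool was run. The median log2 change of the 6 was −0.30, beside 0.077 over all probe sets tested. Many of those are dimmer than the 6, whose mean eGFP RNAi signals were 1659 to 10240. With the dimmest 60% removed, the median over all was −0.017. Then 1958 probe sets were called lower, against 1883, out of fewer tested. The share called lower was thus larger than 16.7% among brighter probe sets. The 3 genes called lower had all 6 Tip60 RNAi arrays below all 4 eGFP RNAi arrays, which held for 13.1% of all probe sets tested. Fewer cells in mitosis and less transcript per cell cannot be told apart in such bulk samples.

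As a check of the labels, Tip60 itself ranged from 209 to 400 (median 289) on the Tip60 RNAi arrays, against 1138, 1163, 1315 and 1339 on the eGFP RNAi arrays. The groups did not overlap, and the log2 change was −2.04 (SE 0.15, adjusted p = 4.77e-08; exact permutation p = 0.00476, two-sided, the smallest that 6 against 4 arrays can give). The arrays shared one trimmed mean signal of 1000, but the median signal was 78.0 to 109.5 on the Tip60 RNAi arrays and 55.4 to 71.8 on the eGFP RNAi arrays. Hybridization and poly-A spike-in controls, which carry no fly sequence, gave log2 signals 0.55 and 0.75 higher after Tip60 RNAi (exact permutation, adjusted p = 0.0143 and 0.00595 over 5 measures). Every change below is therefore relative to the scaling of the array. All 8 hemocyte markers looked up (srp and NimC1 among them) were above the filter on every eGFP RNAi array, and all 8 rose on the deposited scaling. The rises of srp (log2 change 0.44, the least) and vkg (0.45) were less than the difference in either kind of spike-in. Only Pxn (1.10) and NimC1 (2.46) rose by more than the poly-A spike-ins. The summed signal of the 8 was 180628 to 223333 on the Tip60 RNAi arrays and 116655 to 137925 on the eGFP RNAi arrays. Its part in the results below was not tested. Of the 11 marker genes of neurons, muscle, fat body and germline, 8 had a single-gene probe set and 3 of these passed the filter (elav, Lsp2 and bam). None of the 3 was called.

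Mad2 is the protein whose change of shape carries the wait signal. The mad2 probe set gave signals from 1620 to 2081 (median 1881) on the Tip60 RNAi arrays, against 2753, 2826, 2913 and 2978 on the eGFP RNAi arrays. The highest Tip60 RNAi array thus stood below the lowest eGFP RNAi array. Means were 1853 ± 161 (SD, n = 6) after Tip60 RNAi and 2868 ± 98.5 (n = 4) after eGFP RNAi. The log2 change of −0.63 (SE 0.071, adjusted p = 3.92e-06) was the largest among the 6 genes.

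Mad1, a long coiled-coil protein, anchors Mad2 at the kinetochore. Its signal ran from 1621 to 1740 (median 1702) on the Tip60 RNAi arrays, against 1433, 1579, 1772 and 1852 on the eGFP RNAi arrays. The Tip60 RNAi arrays lay inside the eGFP RNAi range, with means of 1695 ± 45.6 (SD, n = 6) and 1659 ± 190 (n = 4). The log2 change was 0.038, with a 95% interval from −0.12 to 0.19 (adjusted p = 0.735), so a fall as large as that of mad2 lay outside the interval on this scale.

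Bub3 is a propeller-shaped adaptor that links Bub1 and BubR1 to the kinetochore. Its signals were 6908 to 7870 (median 7456) after Tip60 RNAi, against 9785, 9938, 10074 and 11161 after eGFP RNAi. No array of one group reached the other. The means of 7431 ± 327 (SD, n = 6) and 10240 ± 626 (n = 4) gave a log2 change of −0.46 (SE 0.059, adjusted p = 1.45e-05).

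Bub1, the kinase that Bub3 carries, overlapped between groups. Signals were 1698 to 2193 (median 1970) on the Tip60 RNAi arrays and 1823, 1897, 1900 and 2037 on the eGFP RNAi arrays. Means were 1952 ± 199 (SD, n = 6) and 1914 ± 89.3 (n = 4). The log2 change of 0.023 had a 95% interval from −0.14 to 0.19 (adjusted p = 0.852).

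Rod, the largest subunit of the RZZ complex, had rod signals of 1142 to 1545 (median 1309) after Tip60 RNAi, against 1719, 1784, 1924 and 2042 after eGFP RNAi. The groups were again apart. Means of 1334 ± 146 (SD, n = 6) and 1867 ± 145 (n = 4) gave a log2 change of −0.49 (SE 0.086, adjusted p = 0.000314). Zw10, which links the complex to dynactin, had signals of 1919 to 2422 (median 2111) after Tip60 RNAi, against 2161, 2365, 2378 and 2631 after eGFP RNAi. Of its 6 Tip60 RNAi arrays 5 lay below the eGFP RNAi mean and 4 below the lowest eGFP RNAi array, yet the groups overlapped. Its log2 change of −0.15 had a 95% interval from −0.30 to 0.010 (adjusted p = 0.141) and did not pass the test.

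**Figure D1:**
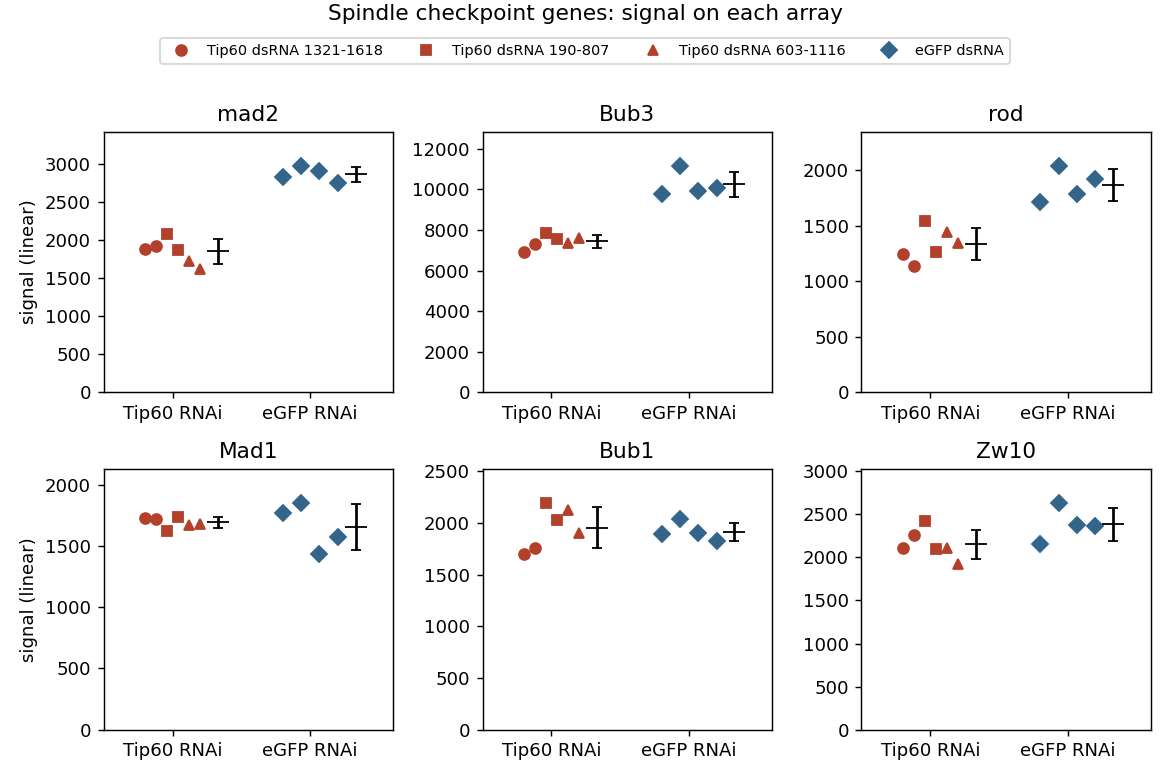
Linear signal (vertical axis, from 0) of each checkpoint gene on each of the 6 Tip60 RNAi arrays (red, symbol by dsRNA) and the 4 eGFP RNAi arrays (blue). Black marks give the mean and SD of each group. The top row (mad2, Bub3, rod) shows groups that do not overlap, and the bottom row (Mad1, Bub1, Zw10) groups that do.

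Each dsRNA was then set against the same 4 eGFP RNAi arrays, so the 3 comparisons share their controls. mad2, Bub3 and rod were called lower with each dsRNA, 3 of 6 genes each time, where 12.6% of all probe sets were called lower with dsRNA 1321-1618, 11.3% with 190-807 and 13.7% with 603-1116. mad2 had 1888 and 1929 with dsRNA 1321-1618, 2081 and 1874 with 190-807, and 1728 and 1620 with 603-1116. The log2 changes of mad2 were −0.59, −0.54 and −0.78 in that order (SE 0.079 each, adjusted p = 9.72e-05, 0.000245 and 8.28e-06). Each dsRNA thus gave a called fall.

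Bub3 had 6908 and 7294 with dsRNA 1321-1618, 7870 and 7548 with 190-807, and 7363 and 7604 with 603-1116. Its log2 changes were −0.53, −0.41 and −0.45 (SE 0.077, adjusted p = 0.000182, 0.00152 and 0.000574). rod had 1250 and 1142 with dsRNA 1321-1618, 1545 and 1269 with 190-807, and 1449 and 1350 with 603-1116. The lowest rod signals were thus both from dsRNA 1321-1618. Its log2 changes were −0.64, −0.41 and −0.41 (SE 0.10, adjusted p = 0.000464, 0.0104 and 0.00840).

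Bub1 was the gene whose direction differed by dsRNA, with 1698 and 1759 for 1321-1618, below every eGFP RNAi array, but 2193 and 2033 for 190-807, and 2122 and 1907 for 603-1116. None of its 3 log2 changes (−0.15, 0.14 and 0.073) was called. When the 3 dsRNAs were compared with each other by an F-test, 0 of the 6 genes were called (limma, adjusted p from 0.481 for Bub1 to 0.978 for Mad1), beside 0.0355% of all probe sets. At an unadjusted p under 0.05 there were 2, Bub1 (0.0246) and mad2 (0.0471). With 2 arrays per dsRNA, a difference of this size was not shown.

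**Figure D2:**
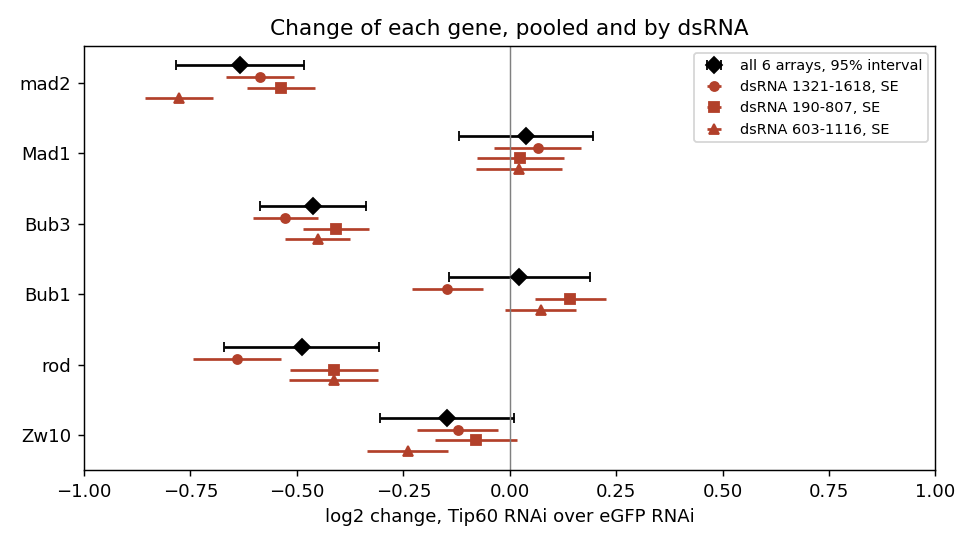
Log2 change of each checkpoint gene, Tip60 RNAi over eGFP RNAi (horizontal axis), for all 6 Tip60 RNAi arrays (black diamonds, 95% interval) and for each dsRNA (red symbols, SE). mad2, Bub3 and rod lie left of 0 with every dsRNA; the pooled intervals of Mad1, Bub1 and Zw10 cross 0.

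A ratio between genes on one array is not moved by a constant scaling of that array. The partners are described in this way in 5 ratios, which were chosen after their values were seen and are given without a test. The log2 ratio of mad2 to Mad1 ran from −0.051 to 0.36 on the Tip60 RNAi arrays and was 0.67, 0.69, 0.80 and 1.02 on the eGFP RNAi arrays, a difference of −0.67. The log2 ratio of Bub3 to Bub1 was 1.80 to 2.05 after Tip60 RNAi and 2.37 to 2.47 after eGFP RNAi, a difference of −0.48. In both pairs the groups did not overlap. This does not show which partner changed.

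Within the RZZ complex the log2 ratio of rod to Zw10 was −0.99 to −0.51 after Tip60 RNAi and −0.41 to −0.30 after eGFP RNAi, a difference of −0.34. Against Zwilch, the third subunit, the difference was −0.20 for rod and 0.14 for Zw10, and in both of these ratios the groups overlapped.

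**Figure D3:**
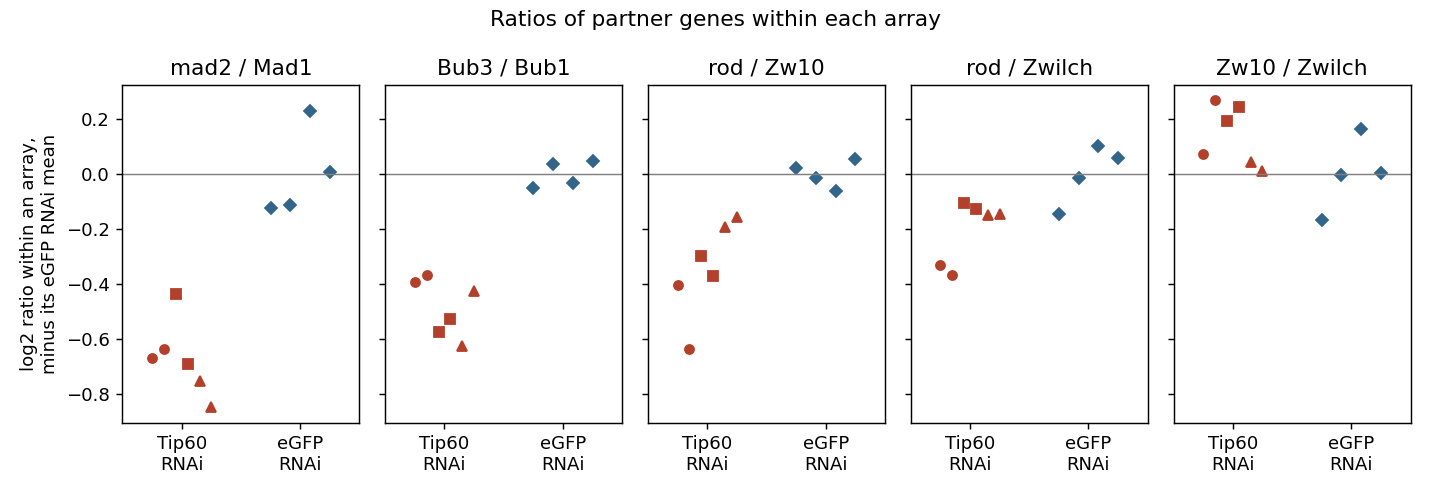
Log2 ratio of 2 genes within each array, minus the mean of that ratio on the eGFP RNAi arrays (vertical axis), for the 6 Tip60 RNAi arrays (red, symbol by dsRNA) and the 4 eGFP RNAi arrays (blue). In the first 3 panels every Tip60 RNAi array lies below every eGFP RNAi array; in the last 2 the groups overlap.

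Transcripts of genes whose products load or regulate the checkpoint proteins mostly fell as well. Of 10 measured genes in a list of 12, 8 fell and 0 rose (median log2 change −0.56; at an unadjusted p under 0.05, 9 and 0). Over all probe sets tested 16.7% were called lower. Median centring and the hybridization and poly-A scalings called 10 of 10 lower, where 48.5%, 41.9% and 60.1% of all probe sets tested were. Among the 3 largest falls were borr (1732 ± 182 after Tip60 RNAi and 2816 ± 119 after eGFP RNAi; log2 change −0.71) and Det (1782 ± 219 and 2834 ± 307; −0.67), which encode the Borealin and Survivin subunits of the chromosomal passenger complex (SD, n = 6 and 4 throughout). Between them in size was pch2, an ATPase gene whose mammalian relative TRIP13 remodels Mad2, with 1973 ± 182 and 3199 ± 225 (−0.70, adjusted p = 2.53e-06). Named after their values were seen, as direct partners of the 6 genes, were Zwilch (−0.29, adjusted p = 0.00583), Spindly (−0.57, adjusted p = 0.0225) and the checkpoint kinase gene Mps1 (−0.25, adjusted p = 0.108). Mps1 did not pass the test.

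The kinetochore platform, to which Bub1, Bub3 and BubR1 are recruited, had 7 of 11 genes lower and 0 higher (median −0.31; the same counts at an unadjusted p under 0.05). On this scaling 16.7% of all probe sets tested were called lower. The largest falls were in cid, the centromeric histone gene (371 ± 69.5 after Tip60 RNAi, 709 ± 56.0 after eGFP RNAi; log2 change −0.95), in Spc25 (−0.90) and in Spc105R (−0.77), whose product is the docking scaffold for the Bub proteins. Ndc80, Mis12, Nnf1b and cal1, named because they were the 4 that did not pass, had log2 changes from −0.11 to −0.011. Under median centring and the hybridization and poly-A scalings 11 of 11 were called lower, where 48.5%, 41.9% and 60.1% of all probe sets tested were.

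Downstream of the checkpoint, fzy fell and most APC/C genes did not pass the test. fzy, the gene of the APC/C activator that Mad2 binds, had 2326 ± 165 after Tip60 RNAi and 3834 ± 172 after eGFP RNAi (log2 change −0.72, SE 0.065, adjusted p = 3.58e-07). In the list of APC/C subunits, activators and E2 enzymes, 3 of 14 measured genes were lower and 1 was higher (median −0.038). The 3 are 21.4% of the list, near the 16.7% called lower over all probe sets tested. Besides fzy these were the E2 gene vih (−0.45, adjusted p = 0.000249) and the subunit gene mr (−0.27, adjusted p = 0.0388), with the subunit gene shtd higher (0.27, adjusted p = 0.0108). The other 10 did not pass. The count of 3 became 2 on leaving out eGFP RNAi replicate 2-1, 2-2 or 3-1, replicate 2 of dsRNA 1321-1618, replicate 1 of 190-807, or either array of 603-1116. It was also 2 after quantile normalization, centring on brighter probe sets or averaging array pairs. The same held without the filter, the intensity trend, dsRNA 190-807 or dsRNA 603-1116. Of the 3 genes mr was nearest the threshold, and its groups overlapped. Median centring called 9 of these 14 genes lower, scaling to the hybridization spike-ins 9 and to the poly-A spike-ins 12, each with 0 higher, against 48.5%, 41.9% and 60.1% of all probe sets.

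Genes of proteins that the APC/C marks for destruction, or that securin holds back, had 5 of 5 measured members lower (median −0.58). The count was 4 or 5 in each of 26 alternative settings, with the separase gene Sse nearest the threshold (adjusted p = 0.0416). thr, a subunit of the fly separase, had 362 ± 60.8 after Tip60 RNAi and 564 ± 59.3 after eGFP RNAi (log2 change −0.65). The securin gene pim had a log2 change of −0.58 (adjusted p = 0.000288) and the mitotic cyclin gene CycB3 one of −0.58 (adjusted p = 0.000346). In the dynein and dynactin list, whose members carry checkpoint proteins away, 3 of 7 fell and 1 rose (median −0.14). Beside this list and the one before, 16.7% of all probe sets tested were called lower and 17.8% higher as deposited. The heavy chain gene Dhc64C fell most (3256 ± 341 after Tip60 RNAi and 5021 ± 456 after eGFP RNAi; −0.63), followed by DCTN2-p50 (−0.33) and robl (−0.31). Dlic, a light intermediate chain gene, was higher (0.38, adjusted p = 0.0157) as deposited. Of the 7 genes, 6 were called lower under median centring, 5 when hybridization spike-ins set the scale and 7 when poly-A spike-ins did. The shares of all probe sets tested were then 48.5%, 41.9% and 60.1%. Dlic was no longer called higher under these scalings, without the intensity trend or without eGFP RNAi replicate 3-1.

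Markers of proliferation moved with these groups, and their part in the fall of mad2, Bub3 and rod was not tested. Of 9 measured S phase genes 7 were lower and 0 higher (median −0.51; the same at an unadjusted p under 0.05), led by PCNA (−0.71), Mcm2 (−0.60) and Mcm6 (−0.60). The share over all probe sets tested, here and for the lists below, was 16.7% lower. Under median centring and the hybridization and poly-A scalings 9 of the 9 were called lower, where 48.5%, 41.9% and 60.1% of all were. The summed signal of the 9 as deposited was 22439 to 24178 on the Tip60 RNAi arrays and 31809 to 34524 on the eGFP RNAi arrays. Of 7 measured genes in a list of 11 other mitotic genes 7 were lower (median −0.56), and 6 or 7 in each of 26 alternative settings. The condensin genes glu (−0.77) and barr (−0.60) and the cytokinesis gene tum (−0.67) led them. The summed signal of the 7 was 13541 to 15256 on the Tip60 RNAi arrays and 20501 to 22142 on the eGFP RNAi arrays. Neither sum overlapped between groups, but both are made of genes mostly called lower already, so this is no further evidence. Among 10 measured genes of the E2F and dREAM regulators of the cell cycle, 6 were lower and 0 higher (median −0.29; 8 and 0 at an unadjusted p under 0.05), led by lin-52 (−0.66), Rbf2 (−0.63) and E2f2 (−0.33). Median centring and the hybridization and poly-A scalings called 10 of the 10 lower, where 48.5%, 41.9% and 60.1% of all probe sets tested were. Mad1, Bub1 and Zw10 stood outside the spread of the 7 other mitotic genes, whose log2 changes ran from −0.77 to −0.27. This was not particular to them. Ndc80, Mis12, Nnf1b and cal1 of the kinetochore platform (−0.11 to −0.011) and the S phase gene dpa (−0.15) also lay above it. So did the checkpoint regulator genes Mtor (−0.13) and Mps1 (−0.25), Sse (−0.25), most genes of the APC/C list and some of the dynein and dREAM lists. Below it lay cid, Spc25 and Spc105R. These differences were not tested.

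**Figure D4:**
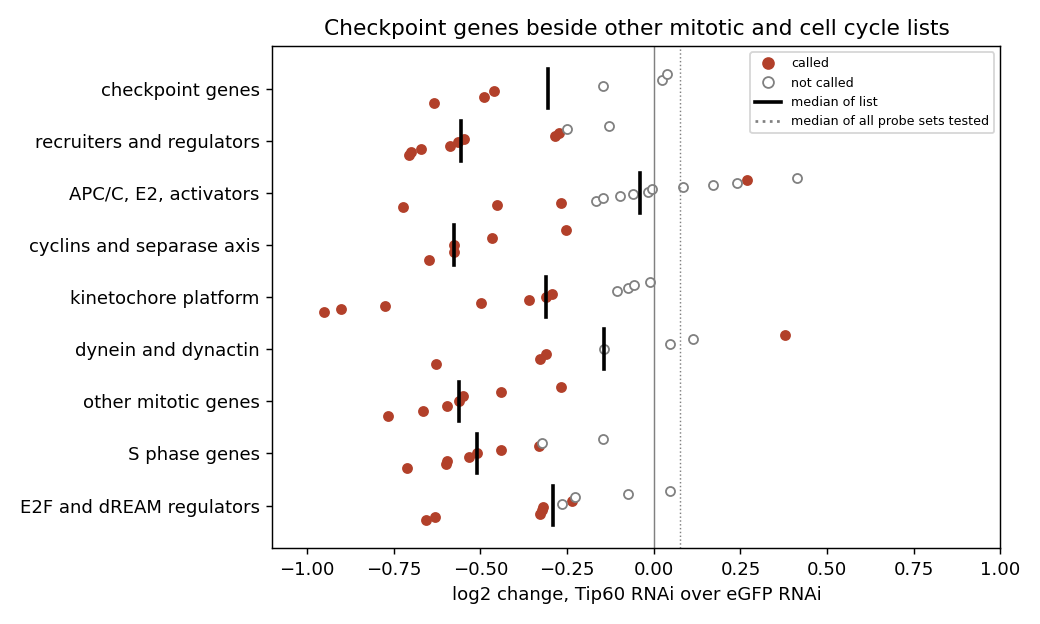
Log2 change, Tip60 RNAi over eGFP RNAi (horizontal axis), of every measured gene of the checkpoint set and 8 other lists. Filled red points were called, open points were not, black bars are list medians and the dotted line is the median of all probe sets tested (0.077). The checkpoint genes fall into 3 called lower (−0.63 to −0.46) and 3 not called (−0.15 to 0.038).

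The scaling of the arrays set how the 3 genes that did not pass were called. After quantile normalization, cyclic loess or centring on brighter probe sets, 3 of the 6 genes were called lower, as with the deposited scaling, where 16.6%, 16.9% and 14.7% of all probe sets tested were. Under centring on the median of all fly probe sets, and under each spike-in scaling, 6 of 6 were called lower. The share of all probe sets called lower was then 48.5% for the median, 41.9% for the hybridization and 60.1% for the poly-A spike-ins, so much of the array was called along with them. These scalings shift whole arrays, so every log2 change moved by the same amount: −0.51 for the median, −0.55 for the hybridization and −0.75 for the poly-A spike-ins. The median over all probe sets tested then stood at −0.43, −0.47 and −0.67. Under the poly-A spike-ins Bub1 stood at −0.73 (adjusted p = 4.42e-05), Mad1 at −0.71 (6.94e-05) and Zw10 at −0.90 (4.15e-07). Which scaling matches transcripts per cell was not tested.

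**Figure D5:**
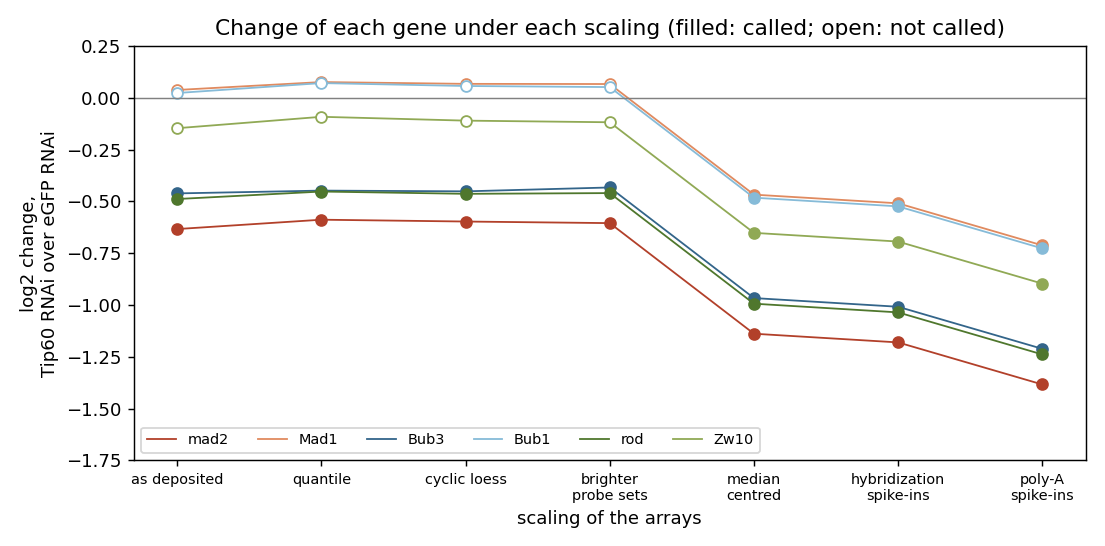
Log2 change of each checkpoint gene, Tip60 RNAi over eGFP RNAi (vertical axis), under 7 scalings of the arrays (horizontal axis). Filled points were called at an adjusted p under 0.05. Median centring and the spike-in scalings move all 6 genes down by one amount each.

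The 5 probe sets with profiles most like the mean standardised profile of the 6 checkpoint genes over the 10 arrays were those of bgm (Pearson r = 0.953), Ipk2 (0.942), Prosbeta2 (0.940), mei-S332 (0.936) and Mys45A (0.935). All 5 were called lower, with log2 changes from −0.46 to −0.27, so the correlation contains the difference between the groups. Over the 6 Tip60 RNAi arrays alone r was 0.79 to 0.91, but these arrays were among the 10 by which the 5 were picked. mei-S332 encodes the fly shugoshin, which protects cohesion at centromeres. Its signal was 629 ± 44.8 (SD, n = 6) after Tip60 RNAi and 761 ± 64.5 (n = 4) after eGFP RNAi (log2 change −0.27, adjusted p = 0.0285). Of the 6 genes, rod and Bub3 followed the mean profile most closely (r = 0.89 and 0.90), and Mad1 least (0.11). Each gene is part of that mean, so its r includes itself and the difference between the groups.

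In RefSeq (assembly Release 6 plus ISO1 MT) mad2 overlaps kri, Mad1 overlaps Cog6, Zw10 overlaps Smyd3 and Bub3 overlaps ppk19. These neighbours were named for their position. kri was lower (log2 change −0.28, adjusted p = 0.00405), by less than mad2. Cog6 (0.026, adjusted p = 0.854) and Smyd3 (−0.039, adjusted p = 0.770) did not pass the test, and ppk19 was under the filter. Of the adjacent genes tested, 3 were called, in both directions. Over all probe sets tested 16.7% were called lower and 17.8% higher, and the calls of neighbours were not tested against these shares. Cap-D2 of the condensin complex, next to Bub3, was lower (−0.49, adjusted p = 0.00179). S6k next to mad2 (0.27, adjusted p = 0.0152) and eIF3g1 next to Zw10 (0.21, adjusted p = 0.0186) were higher. The log2 changes of Nin next to Bub1, Obp99a on the other side of Bub3 and CG2063 next to Mad1 ran from −0.17 to −0.11 and did not pass the test. Nor did mle next to BubR1 (0.096, adjusted p = 0.528). The remaining adjacent genes had no tested probe set. Probe sequences were not used here, so whether a probe set also reads an overlapping transcript was not tested.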

How the data were processed

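Transcript levels were measured in 10 SL2 samples, 1 Affymetrix array each. Per the submitters' processing notes the deposited signal intensities were made with GCOS 1.4; the background correction and probe summary behind them were not stated. All arrays were deposited at a 2% trimmed mean of about 1000, as checked on the values. Groups came from the labels.

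From these, log2 signals of the 18769 fly probe sets (183 controls left out) were tested without further normalization after the dimmest 40% by mean log2 signal were removed (under a signal of 34.5). limma 3.58.1 in R 4.3.3 (lmFit, eBayes with intensity trend) fitted 6 against 4 arrays, and 4 group means for single dsRNAs, with Benjamini-Hochberg adjustment; this step was tested on simulated data. Single values per array had a two-sided exact permutation test. Gene names came from the platform annotation, updated by Entrez identifier (13544 of 13647 single-gene probe sets matched RefSeq). Each listed gene was represented by its probe set of highest mean. The genes named were the 7 checkpoint genes, Tip60, up to 3 called genes per list that fell most and 3 that rose most, and the 5 of most similar profile; others are said to be chosen later. Members and lists were chosen with earlier results of these data known. Alternatives were other scalings, filters, an added offset, variance models, array pairs and left-out arrays or dsRNAs. Promoter and protein sequences were not used here.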

Additional observations from a re-analysis of the deposited data

How the results depend on the processing

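The number of arrays, 2 per dsRNA, limits the precision. Of 26 alternatives, 23 gave 3 of the 6 checkpoint genes called lower, and 0 were called higher in any of them. Bub3 (log2 change −1.21 to −0.42), mad2 (−1.38 to −0.56) and rod (−1.24 to −0.41) kept their sign and call in all 26, with adjusted p up to 0.00388. The exceptions to the count were centring on the median, the hybridization spike-ins and the poly-A spike-ins, each with 6 called lower. Under these, by the constant they subtract, Bub1 turned to −0.48, −0.52 and −0.73 and Mad1 to −0.47, −0.51 and −0.71. Probe sets called in all were 3885 as deposited, 5861 with median centring and 6993 with the poly-A spike-ins. The share called higher was 51.5% as deposited, 6.84% and 3.25% under those 2 scalings and 5.88% with the hybridization spike-ins. Bub1 on the deposited scaling (0.023) also turned to −0.037 without dsRNA 190-807 and to −0.0021 without dsRNA 603-1116. Leaving out 1 array gave −0.012 to 0.062 for Bub1 and −0.031 to 0.093 for Mad1, none called. As deposited both changes were smaller than their SE (0.078 for Bub1 and 0.074 for Mad1). The Bub1 change is the mean of −0.15, 0.14 and 0.073 for dsRNA 1321-1618, 190-807 and 603-1116, so its sign depends on which are included. The Tip60 fall kept its call in all 26.

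The titles of dsRNA 190-807 and 603-1116 share the numbers 1 and 3, but deviations of same-numbered arrays correlated at 0.0023 and the labels tie nothing to the number. The comparison of these dsRNAs called 0 probe sets by limma with or without the replicate block (950 and 1027 at an unadjusted p under 0.05). Arrays of 1 dsRNA, or eGFP arrays of 1 title number, taken as a random block had an estimated correlation of 0.021.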
